A study of Mus musculus with 8 samples.

Results

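The clustered protocadherins are cell-surface adhesion proteins encoded in the alpha, beta and gamma gene clusters of mouse chromosome 18. Their entries were taken from the deposited table of hippocampal RNA-seq counts by gene symbol, as every symbol that names a numbered Pcdha, Pcdhac, Pcdhb, Pcdhga, Pcdhgb or Pcdhgc gene. This gave 59 of 46078 entries, 15 in the alpha cluster, 22 in the beta cluster and 22 in the gamma cluster. The symbols Pcdha4, Pcdha11 and Pcdhga8 each occur more than once, so the 59 entries carry 56 distinct symbols, and repeated entries are called the first and the second entry here. Pcdha10 and Pcdhgc4 were not analysed here under those names. The annotation used here has a single gene identifier for Pcdha4 and for Pcdhga8, so an entry of a repeated symbol may belong to another gene of its cluster, and its subtype below follows its symbol only. Without these 6 entries the log2 difference between Cre and WT of the summed level, described below, was -0.11 for the alpha and -0.03 for the gamma cluster, against -0.13 and -0.03 with them.

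The libraries were made from poly(A) RNA of the hippocampus of C57BL/6J mice aged 9 weeks, with a directional kit and paired reads of 150 bases. The WT group had 4 libraries of wild-type mice. The Cre group had 4 libraries of mice that carry the Tg(Camk2a-cre)2Gsc transgene (CamiCre) as Cre+/-, in which Camk2a regulatory sequence drives Cre recombinase mainly in forebrain excitatory neurons. No floxed allele and no treatment is named for either group. The labels do not say that each library came from a separate mouse, so the p-values measure the spread between libraries, which may be partly technical.

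In the alpha and gamma clusters each gene has its own first exon, with its own promoter, which is spliced to constant exons shared by the whole cluster, while each beta gene is a single unit without a constant part. A neuron switches on a small, partly random choice of these promoters. CTCF and cohesin form loops that bring a chosen promoter to a distant enhancer. The chosen proteins bind like to like on the surfaces of neighbouring membranes, which lets neurites of the same neuron recognise and avoid each other. The C-type genes at the ends of the alpha and gamma clusters are the exception: several of them are expressed in most neurons of a region and not by random choice. RNA of a whole hippocampus averages over many such choices, so a level below is a mean over cells, and fewer cells that use a gene cannot be told apart from less RNA per cell.

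In the GRCm38 annotation (GENCODE M21) the alpha cluster lies on chromosome 18 from 36930184 to 37187661, the beta cluster from 37264938 to 37524479 and the gamma cluster from 37661793 to 37841873. The same chromosome carries Camk2a, whose start lies 23.1 Mb beyond the end of the gamma cluster. The annotated exons of all 14 alpha gene identifiers share 2860 bases and those of all 22 gamma gene identifiers share 2116 bases, whereas no exon base is common to all beta genes. How the counting treated reads in shared exons, and whether it used strand, is not given in the sources used here. An alpha or gamma count therefore stands mainly for the gene's own first exon if shared reads were dropped, and includes part of the constant exons if they were not.

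The libraries held 21339996 to 27826871 counts, of which 14349 to 18594 fell in clustered protocadherins, or 0.0632% to 0.069%. Levels are given as counts per 1000000 normalised library counts (CPM), and 3 counts correspond to 0.107 to 0.142 CPM. Syt2, the gene for which the series is titled, stood at 35.4 ± 4.1 CPM in WT against 176 ± 12.2 CPM in Cre (SD, n = 4 each), with the groups apart as their labels say. WT replicate 1 stood apart in markers of the choroid plexus, the epithelium that makes cerebrospinal fluid, whose 9 genes summed to 1020 CPM there and to 23.9 to 36.1 CPM in the other libraries. The 10 microglia markers summed to 387 to 418 CPM in WT against 422 to 557 CPM in Cre, and the 9 astrocyte markers to 4410 to 4680 and 4730 to 5390 CPM, with the highest value of both in Cre replicate 1. The 8 oligodendrocyte markers summed to 4020 to 4470 CPM in WT against 4040 to 5180 CPM in Cre, also highest in Cre replicate 1. The 9 markers of excitatory neurons, the cells of the transgene, summed to 6840 to 7310 CPM in WT against 6840 to 7260 CPM in Cre.

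No clustered protocadherin passed the threshold between Cre and WT. Of the 59 entries, 56 had enough counts to be tested (13 alpha, 21 beta and 22 gamma). None of the 56 reached an adjusted p under 0.05 in the quasi-likelihood test of edgeR (Benjamini-Hochberg over 15859 genes), where 5 genes (0.0315% of all tested) did, and their adjusted p was 0.999 throughout. DESeq2 and limma voom also gave 0 of 56. At an unadjusted p under 0.05 there were 7 members (12.5%) against 3.5% of all tested genes. Of these, Pcdhgb5 was higher in Cre, against a background of 2.05%, and 6 were lower, against a background of 1.45%: Pcdhac2, Pcdhga4, Pcdhga12, Pcdha5, the first entry of Pcdha11 and the second entry of Pcdhga8. All 7 members lie in the alpha and gamma clusters, whose genes share exons, so they may not be independent of each other. The part of shared reads in this count was not tested. At an unadjusted p under 0.05 DESeq2 gave 5 members (2.51% of all genes) and limma voom 6 (3.37%). Without Cre replicate 3 there were 6 members, 3 higher and 3 lower (3.51% of all genes in that fit).

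The 3 entries without a test were close to silent. The first entry of Pcdha4 had 3 to 9 counts per library and the second entry had 0 in every library. Pcdhb1, the gene at the start of the beta cluster, had 0 to 6 counts. In the annotation only 494 of the 5768 exon bases of Pcdha4 belong to no other gene on its strand, so its low count does not give its promoter's activity.

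The levels spanned a wide range, with the C-type genes Pcdhgc3, Pcdhgc5 and Pcdhac2 at the top. On the scale of CPM per kb of annotated exon, averaged over the 8 libraries, Pcdhgc3 stood at 17.4 and Pcdhgc5 at 13.2, the highest levels among the 53 members that have a length. Pcdhgc3 is known for its part in the branching of cortical dendrites, and Pcdhgc5 for binding GABA-A receptors at inhibitory synapses. Pcdhac2, the C-type gene at the end of the alpha cluster, which serotonergic axons need in order to spread evenly, followed at 7.22. The other C-type gene of the alpha cluster, Pcdhac1, was at 0.587, below the median of the other alpha genes.

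Set against the median of the members of its own cluster that are not C type, Pcdhac2 was at a ratio of 10 per kb, with 8.45 to 11 in the single libraries. Pcdhgc3 was at 8.69 (8.03 to 9.32) and Pcdhgc5 at 6.59 (5.84 to 7.26). With only the exon bases that no other gene on the strand shares, the ratios were 8.33, 7.56 and 5.82, so their size depends on how shared exons are counted while each stayed well above 1 in every library. Pcdhac2 alone gave 48.4% ± 1.04 of the alpha counts in WT and 46.9% ± 2.02 in Cre (SD, n = 4). The gamma C genes Pcdhgc3 and Pcdhgc5 together gave 47.4% ± 1.31 and 47.2% ± 0.809 of the gamma counts.

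**Figure D1:**
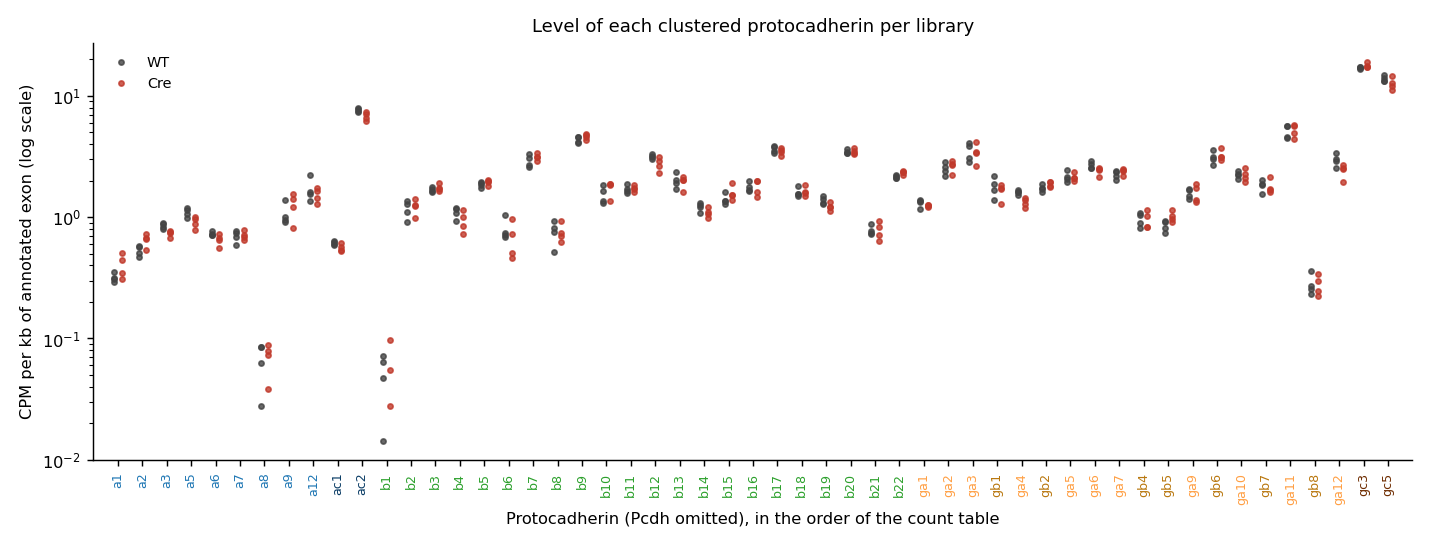
Level of the 53 clustered protocadherins with an annotated length, in CPM per kb of annotated exon on a log axis, with 1 point for each of the 4 WT (grey) and 4 Cre (red) libraries. A library with 0 counts has no point on the log axis (1 Cre library for Pcdhb1), and Pcdhgc3, Pcdhgc5 and Pcdhac2 lie above all other genes.

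Among the alpha genes that are not C type, whose own first exons encode the adhesive outer part of the protein, levels ran from 0.0674 CPM per kb for Pcdha8 to 1.6 for Pcdha12, with a median of 0.701. Beta genes ran from 0.0471 for Pcdhb1 to 4.48 for Pcdhb9, with a median of 1.67. Gamma A genes ran from 1.28 for Pcdhga1 to 5.13 for Pcdhga11 (median 2.3) and gamma B genes from 0.28 for Pcdhgb8 to 3.18 for Pcdhgb6 (median 1.72). Per kb of exon bases that no other gene on the strand shares, the medians were 1.71 in alpha, 1.67 in beta, 4.02 in gamma A and 3.18 in gamma B, so whether alpha genes lie below beta genes depends on how shared exons are counted. Pcdhgb8 is annotated as a polymorphic pseudogene. After Pcdhb9 the highest beta genes were Pcdhb17 and Pcdhb20, both above 3 CPM per kb. Within a cluster, the later an alpha gene lies on the chromosome the higher its level tended to be (Spearman's rho 0.52 over 9 genes, 0.57 per unshared kb). The same measure was 0.19 over 21 beta genes and 0.08 over 18 gamma genes (-0.12 per unshared kb). All genes of a cluster were read from the same libraries, so these values only describe the order.

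Antisense genes limit several of these levels. Gm26672 lies on the opposite strand over every exon base that is Pcdhga10's own, and had 37 to 72 counts per library where Pcdhga10 had 226 to 309. BC037039 overlaps part of Pcdhgc3 in the same way and had 12 to 25 counts against 2005 to 2686 for Pcdhgc3. Without a stated strand setting, reads of such a pair cannot be told apart. The same limit holds for other members, among them Pcdhga11, Pcdha12, Pcdhgb7 and Pcdhb12. Of the exon bases that no other gene on the strand shares, 1256 of 2637 in Pcdhga11 and 1944 of 2475 in Pcdha12 were also free on the opposite strand. In Pcdhgb7 these were 1823 of 2594, and in Pcdhb12 1107 of 3034.

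The summed level of each cluster was then compared between the groups. The alpha cluster summed to 97.3, 91.6, 93.3 and 90.1 CPM in WT replicates 1 to 4 and to 89.4, 88.1, 77.3 and 86.8 CPM in Cre replicates 1 to 4. The WT mean was 93.1 ± 3.09 and the Cre mean 85.4 ± 5.5 CPM (SD, n = 4), a ratio of 0.918 or -0.13 on the log2 scale. The groups did not overlap, but the nearest libraries differed by less than 1 CPM, and with library totals alone or upper-quartile factors for scaling they overlapped. Cre replicate 3 was the lowest library, and the log2 difference was -0.08 without it. The mean of the tested alpha members' log2 fold changes was -0.07 and their median -0.14, with 5 members above 0 and 8 below.

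The larger part of the alpha difference lay in the C-type gene Pcdhac2. Pcdhac1 and Pcdhac2 together summed to 48.3 ± 1.43 CPM in WT against 43.1 ± 3.25 CPM in Cre. These groups did not overlap, with 47 CPM in the lowest WT library against 46.5 CPM in the highest Cre library. The overlap of this sum under other scalings was not examined. Pcdhac2 alone overlapped with library totals, upper-quartile factors or DESeq2's size factors. The alpha genes that are not C type summed to 44.7 ± 2.1 and 42.3 ± 3.1 CPM, with overlapping groups. As a share of all clustered protocadherin counts, which needs no scaling between libraries, the alpha cluster held 13.5% to 14.1% in WT and 12.3% to 13.1% in Cre. The microglia and astrocyte marker sums were higher in every Cre library than in any WT library, as given above. Of these markers 10 of 10 and 8 of 9 were above 0 in log2 fold change, with none past the threshold. As a mean of log2 CPM (0.5 CPM added), the astrocyte markers overlapped, at 7.48 to 7.56 in WT against 7.54 to 7.7 in Cre. The microglia markers stayed apart on that scale, at 4.89 to 5.03 in WT against 5.05 to 5.44 in Cre. The oligodendrocyte sums overlapped between the groups, with 8 of 8 markers above 0 (median log2 fold change 0.15, against 0.19 for microglia and 0.09 for astrocytes) and none past the threshold. Cre replicate 1, where all 3 sums were highest, had the highest alpha sum of the Cre group. The part of glial RNA in the alpha difference was not tested.

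The beta cluster summed to 171, 172, 163 and 162 CPM in WT against 164, 166, 164 and 172 CPM in Cre. The means were 167 ± 5.41 and 167 ± 3.93 CPM, with a log2 difference of 0. The gamma cluster summed to 420, 415, 433 and 411 CPM in WT against 427, 425, 387 and 403 CPM in Cre, with means of 420 ± 9.33 and 410 ± 19.1 CPM (log2 difference -0.03). In both clusters the groups overlapped, and the median log2 fold change of their tested members was 0.005 in beta and -0.001 in gamma. The subtypes of the gamma cluster were as close: gamma A summed to 166 ± 5.85 and 161 ± 4.31 CPM, gamma B to 54.4 ± 2.66 and 55.9 ± 4.67 CPM, and gamma C to 199 ± 6.16 and 194 ± 11.6 CPM.

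**Figure D2:**
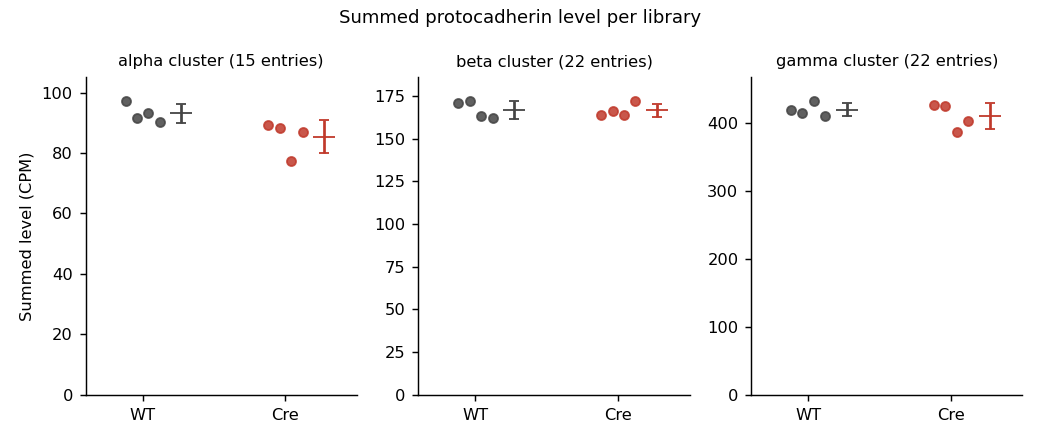
Summed level of the alpha, beta and gamma cluster in CPM (vertical axis from 0) in the 4 WT and 4 Cre libraries, with the mean and SD beside the points. The alpha Cre points all lie at or below 89.4 CPM and the WT points at or above 90.1, while beta and gamma points overlap.

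Over all 56 tested members, 28 log2 fold changes were above 0 and 28 below, from -0.44 to 0.34. Their median was -0.001, against 0 over all 15859 genes. The median size of the change without its sign was 0.11, against 0.05 for all genes, and the median standard error was likewise larger, 0.11 against 0.07. The biological coefficient of variation, edgeR's estimate of the spread between libraries of a group, had a median of 9.1% in the members and 6.72% in all genes. For 49 of the 56 members the 95% confidence interval lay within a 1.5-fold change in either direction, as it did for 12958 of all 15859 genes. The position of a gene within its cluster showed little relation to its fold change (rho -0.18 in alpha, -0.03 in beta and 0.05 in gamma).

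**Figure D3:**
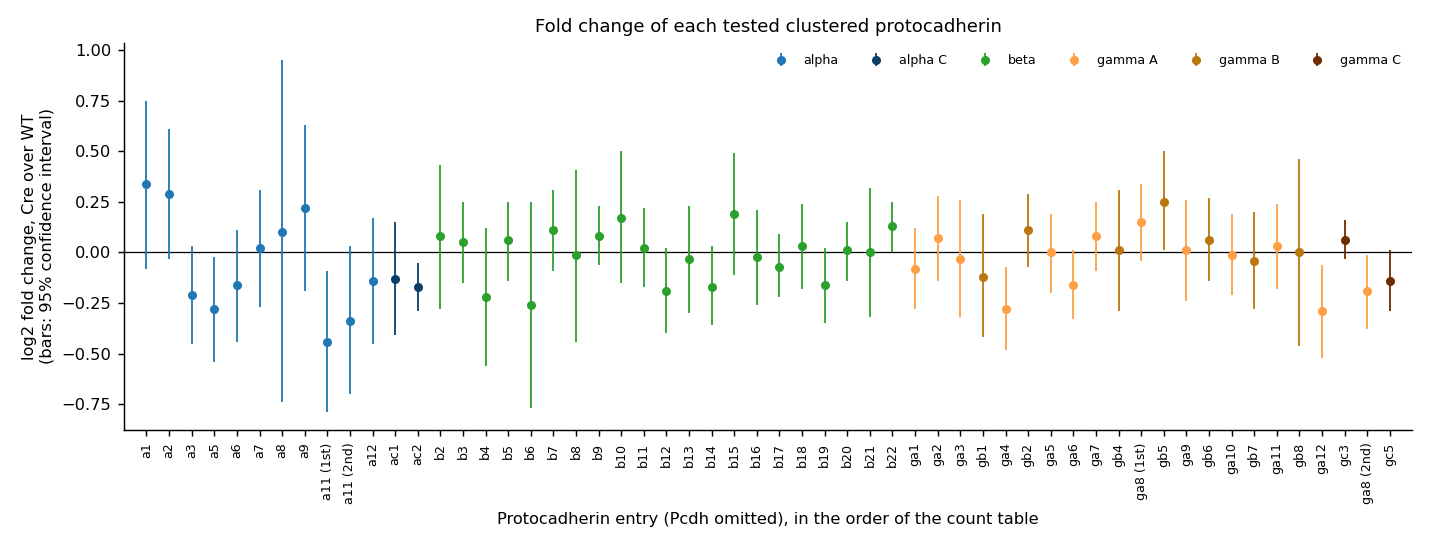
Log2 fold change of Cre over WT for each of the 56 tested entries in the order of the count table, coloured by subtype, with bars for the 95% confidence interval. The intervals are widest for genes of few counts such as Pcdha8 (-0.74 to 0.95) and narrowest for Pcdhgc3 (-0.03 to 0.16).

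In 5 of the 56 members (8.93%) no WT library overlapped a Cre library, against 2.31% of all tested genes. In Pcdha3, Pcdhac2, Pcdhga4 and Pcdhga6 the Cre libraries were the lower (background 1.03%), and in Pcdhb22 the higher (background 1.29%). In 3 of these the gap between the groups was very small: 0.0162 CPM in Pcdhac2, 0.0128 CPM in Pcdhb22 and 0.0294 CPM in Pcdhga6. With DESeq2's size factors only Pcdha3 and Pcdhga4 kept groups apart, and with library totals or upper-quartile factors these and Pcdhb22 did. The count thus depends on the scaling, and lies between 2 and 5 members over the 4 scalings. Over all 15859 tested genes it ran from 354 (library totals) to 368 (upper-quartile factors), with 356 under DESeq2's size factors and 367 under TMM. The excess of the members over all genes was thus smallest with DESeq2's size factors, at 2 of 56 members. Groups apart always give the smallest p of the exact permutation test, 0.0286. Where that value is given below, it restates the lack of overlap and adds no support.

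Pcdhac2 had the smallest p of all members. Its level was 47, 45.5, 43.9 and 43.6 CPM in WT replicates 1 to 4 and 41.7, 43.6, 36.2 and 38.7 CPM in Cre replicates 1 to 4, with means of 45 ± 1.54 and 40 ± 3.25 CPM. The fitted log2 fold change was -0.17 (SE 0.06, 95% interval -0.29 to -0.05, edgeR p = 0.0106, adjusted p = 0.999, exact permutation p = 0.0286). Cre replicate 2 touched the lowest WT libraries and Cre replicate 3 lay farthest below. The 4 markers of serotonergic neurons, whose axons reach the hippocampus, summed to 6.01 to 6.69 CPM in WT against 6.16 to 8.3 CPM in Cre. Only 2 of these markers had enough counts to be tested, and the sum is no measure of those axons. Pcdhac1, which shares the alpha constant exons, was at 3.32 ± 0.116 and 3.04 ± 0.207 CPM (log2 fold change -0.13, SE 0.13), with overlapping groups.

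Both genes with a gamma C symbol had overlapping groups. Pcdhgc3 was at 92.6, 91.7, 95.2 and 94.9 CPM in WT against 105, 94.8, 96 and 94.6 CPM in Cre, with a log2 fold change of 0.06 (SE 0.04, 95% interval -0.03 to 0.16). Only Cre replicate 1 lay clearly above the WT libraries, and the value was 0.02 without it. Pcdhgc5 was at 114, 101, 106 and 101 CPM in WT against 96.9, 110, 85 and 92.3 CPM in Cre, with a log2 fold change of -0.14 (SE 0.07, 95% interval -0.29 to 0.01). In Pcdhgc5 it was Cre replicate 2 that stood within the WT range, while the other 3 Cre libraries lay below it. The value for Pcdhgc5 was -0.21 without Cre replicate 2 and -0.08 without Cre replicate 3.

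Among the alternative alpha genes, Pcdha3 was at 4.78, 4.67, 4.44 and 4.28 CPM in WT against 4.1, 3.59, 3.97 and 4.04 CPM in Cre. The gap between the groups was 0.179 CPM, and the log2 fold change was -0.21 (SE 0.11, p = 0.0867 by edgeR; p = 0.0286 by the exact permutation test over libraries, the smallest it can give). Pcdha5 was at 5.71 ± 0.484 CPM in WT against 4.72 ± 0.533 CPM in Cre (fitted log2 fold change -0.28, SE 0.12), where Cre replicate 2 reached into the WT range. The first entry of Pcdha11 had the largest fitted difference of all members: 4.85, 4, 4.11 and 4.73 CPM in WT against 3.14, 3.03, 2.61 and 4.32 CPM in Cre (fitted log2 fold change -0.44, SE 0.16). Cre replicate 4 of this entry lay inside the WT range and the other 3 below it. The second entry of Pcdha11 was at 2.77 ± 0.365 and 2.19 ± 0.31 CPM (-0.34, SE 0.17). At the other end stood Pcdha1 and Pcdha2, the first genes of the cluster, with log2 fold changes of 0.34 (SE 0.19) and 0.29 (SE 0.15), which were chosen after their values were seen, and with overlapping groups.

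Some alpha genes varied more between libraries of a group than between groups. Pcdha9 was at 7.37, 5.34, 4.9 and 5.06 CPM in WT against 7.57, 8.23, 4.36 and 6.52 CPM in Cre, so that its coefficient of variation was 20.3% and 25.4%. Pcdha12, the alpha gene of the highest level that is not C type, was at 8.29, 7.19, 11.8 and 8.6 CPM in WT against 8.74, 6.81, 7.62 and 9.21 CPM in Cre. Its WT replicate 3 lay above all other libraries, and its log2 fold change of -0.14 turned to 0.02 without that library. Pcdha8 had only 4 to 11 counts per library, and its fold change has the largest standard error of all tested members (0.39).

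In the beta cluster, where the genes share no constant exon, no member had an unadjusted p under 0.05 by edgeR. Pcdhb22, the last beta gene (chromosome 18, 37517871 to 37524479), was at 14.6, 13.9, 13.9 and 14.3 CPM in WT against 14.6, 15.7, 15.7 and 15.9 CPM in Cre (fitted log2 fold change 0.13, SE 0.06, edgeR p = 0.0575, exact permutation p = 0.0286). Cre replicate 1 lay beside the highest WT library and the other 3 Cre libraries above it. Pcdhb12, Pcdhb14 and Pcdhb19 had log2 fold changes of -0.19, -0.17 and -0.16 (SE 0.1, 0.09 and 0.09), with overlapping groups in all 3. Pcdhb9, which led the beta cluster per kb, was at 13.3 ± 0.803 CPM in WT against 14.1 ± 0.603 CPM in Cre (0.08, SE 0.07), Pcdhb17 at 17 ± 1.13 and 16.2 ± 1.12 CPM (-0.07, SE 0.07), and Pcdhb20 at 12.3 ± 0.451 and 12.3 ± 0.671 CPM (0.01, SE 0.07). Pcdhb6 varied widely within both groups, with 2.59 to 3.93 CPM in WT against 1.72 to 3.59 CPM in Cre. The coding parts of beta genes are closely alike, so reads could be split between them by the counting.

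Of the gamma A genes, Pcdhga4 had the widest gap between groups of any member, 0.401 CPM. It was at 7.85, 7.6, 7.56 and 7.16 CPM in WT against 6.49, 6.01, 6.76 and 5.58 CPM in Cre, with means of 7.54 ± 0.286 and 6.21 ± 0.519 CPM. The log2 fold change was -0.28 (SE 0.09, 95% interval -0.48 to -0.07, edgeR p = 0.0115, adjusted p = 0.999, exact permutation p = 0.0286), and the groups stayed apart under each of the 4 scalings. Of its 4727 exon bases only 1570 belong to no other gene on its strand. Pcdhga12, the last of the gamma A genes, was at 16.8, 19.2, 19.9 and 22.4 CPM in WT against 16.9, 16.5, 12.9 and 17.9 CPM in Cre (fitted log2 fold change -0.29, SE 0.11, edgeR p = 0.0169, exact permutation p = 0.0857). Its WT replicate 1 lay within the Cre range. Pcdhga6 was at 12, 12.9, 13.7 and 12 CPM in WT against 11.5, 11.7, 10.1 and 12 CPM in Cre (-0.16, SE 0.08), so that the highest Cre library met the lowest WT libraries.

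The entries of Pcdhga8 went opposite ways: the first was at 12.4 ± 1.18 CPM in WT against 13.8 ± 1.16 CPM in Cre (fitted log2 fold change 0.15, SE 0.09), the second at 13.8 ± 1.31 and 12 ± 0.857 CPM (-0.19, SE 0.08). The count table gives no identifiers, but its members with a position follow their order on the chromosome. The second entry stands between Pcdhgc3 and Pcdhgc5, where the annotation places Pcdhgc4, so it is probably that C-type gene. The gamma A and gamma C sums and shares therefore hold only for the entries as named. Pcdhga11, the gamma A gene of the highest level, was at 24.2 ± 2.96 and 24.7 ± 2.92 CPM (0.03, SE 0.1). Pcdhga1, the lowest per kb, was at 7.03 ± 0.553 and 6.66 ± 0.131 CPM (-0.08, SE 0.09). Pcdhga3 ran from 13.5 to 19.1 CPM in WT against from 12.4 to 19.5 CPM in Cre, a wide spread with the same mean to within the SD (log2 fold change -0.03, SE 0.13).

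Among the gamma B genes Pcdhgb5 was the only member of any cluster that was higher in Cre at an unadjusted p under 0.05 by edgeR. It was at 6.22, 5.49, 4.94 and 6.17 CPM in WT against 7.78, 6.9, 6.44 and 6.16 CPM in Cre (fitted log2 fold change 0.25, SE 0.11, p = 0.0448, adjusted p = 0.999, exact permutation p = 0.0857), with Cre replicate 4 inside the WT range. Pcdhgb2 was at 8.44 ± 0.507 and 9.13 ± 0.489 CPM (0.11, SE 0.08) and Pcdhgb6 at 14.5 ± 1.68 and 15.2 ± 1.55 CPM (0.06, SE 0.09). Pcdhgb1 and Pcdhgb7 had log2 fold changes of -0.12 (SE 0.14) and -0.04 (SE 0.11). The pseudogene Pcdhgb8 had 22 to 44 counts per library and a log2 fold change of 0 (SE 0.21).

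**Figure D4:**
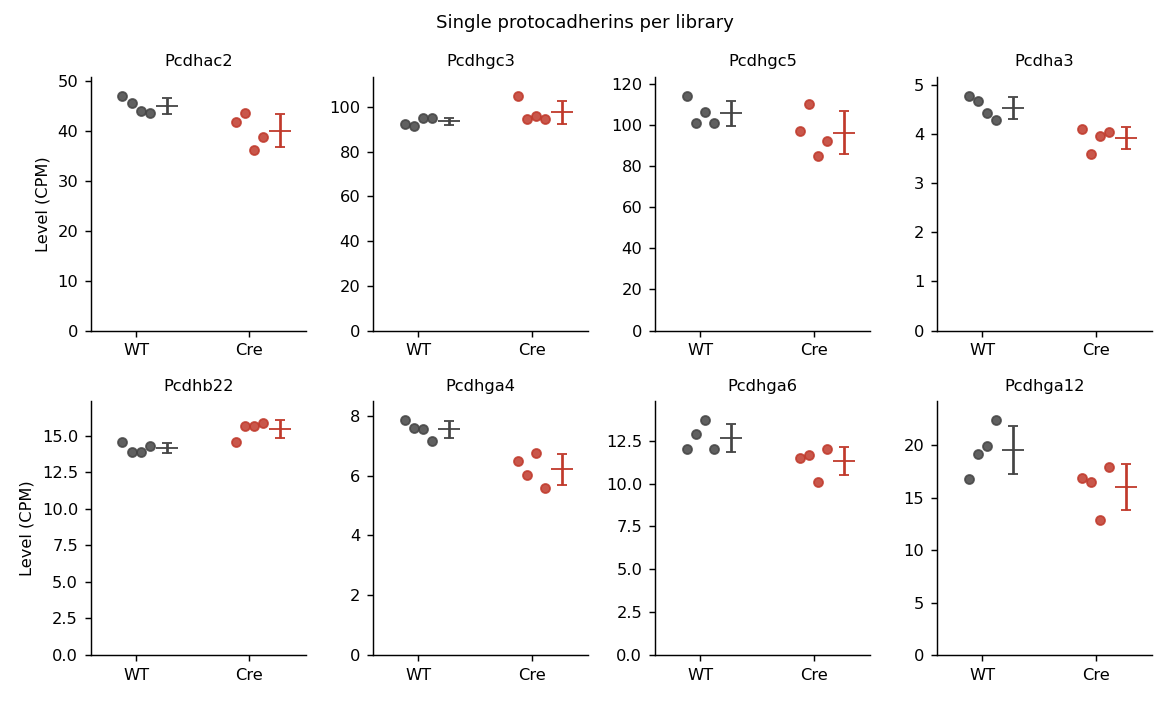
Level of 8 clustered protocadherins in CPM (vertical axes from 0) in the 4 WT (grey) and 4 Cre (red) libraries, with the mean and SD beside the points. Pcdhga4 and Pcdha3 show a gap between the groups, Pcdhac2, Pcdhb22 and Pcdhga6 touch, and Pcdhgc3, Pcdhgc5 and Pcdhga12 overlap.

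The authors' deposited table of their own comparison lists 55 clustered protocadherins. A p-value under 0.05 in the authors' deposited table was given to 6 of these, 5 with a negative and 1 with a positive log2 fold change. The share of all genes at that level in the authors' comparison is not given here, so the 6 have no background beside them. The fold changes of the 55 run from -0.44 to 0.34. The smallest p-value there is 0.00914, for Pcdhac2, which becomes 1 after adjustment over that table.

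Genes that work with the clusters or lie beside them were read from lists. Among the protocadherins outside the clusters, which stand alone in the genome and lack this promoter choice, 0 of 12 passed the threshold, 3 were above 0 and 9 below, and the median log2 fold change was -0.066. Pcdh19, an X-linked epilepsy gene, was at 128 ± 5.74 CPM in WT against 117 ± 6.7 CPM in Cre (-0.13, SE 0.05), with overlapping groups, and was the only gene of this list with an unadjusted p under 0.05 by edgeR. Pcdh9 and Pcdh10 had values of -0.08 (SE 0.05) and -0.07 (SE 0.04).

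Of 22 chromatin factors, which include CTCF, cohesin, DNA methyltransferases and repressors known to act at the clusters, 0 passed the threshold, with 11 above 0 and 11 below and a median of 0.002. Ctcf was at 78.5 ± 2.97 and 79.9 ± 4.91 CPM (0.03, SE 0.05), the cohesin subunit Rad21 at 117 ± 3.25 and 121 ± 2.1 CPM (0.06, SE 0.04), and Dnmt1 at 55.7 ± 1.99 and 52.7 ± 2.69 CPM (-0.08, SE 0.05). Tet2, which oxidises methylated cytosine, was at 44.3 ± 3.34 and 48.7 ± 4.02 CPM (0.14, SE 0.07). The factor list had a single gene with groups apart, against 2.31% of all tested genes. This was the corepressor Trim28, at 138 to 143 CPM in WT against 135 to 138 CPM in Cre (-0.04, SE 0.03). Its groups meet at the digits given, and its overlap under other scalings was not examined. Ctcf and Trim28 were chosen after their values were seen.

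Among 19 genes of proteins that bind or act downstream of clustered protocadherins, such as focal adhesion kinases and the WAVE complex, 0 passed the threshold, with 6 above 0 and 13 below and a median of -0.02. Marcks, an actin regulator downstream of the gamma proteins, was at 160 ± 11.5 and 173 ± 8.31 CPM (0.11, SE 0.05). Cyfip2 and Nckap1, both of the WAVE complex, had log2 fold changes of -0.06 (SE 0.04) and -0.05 (SE 0.04). Of 11 tested genes beside or between the clusters, 0 passed the threshold, with 8 above 0 and 3 below and a median of 0.015. Taf7, a general transcription factor gene that lies between the beta and gamma clusters, was at 7.49 ± 0.691 and 7.64 ± 0.511 CPM (0.03, SE 0.1). Dnd1, a gene of few counts just before the alpha cluster, was at 1.22 ± 0.498 and 1.6 ± 0.365 CPM (0.4, SE 0.29), and its neighbours Hars and Zmat2 had log2 fold changes of -0.05 (SE 0.05) and 0.03 (SE 0.04). Slc25a2, also between the beta and gamma clusters, had too few counts to be tested (0.0741 to 0.25 CPM), and Diaph1 and Wapl were not analysed here under those names. At an unadjusted p under 0.05 by edgeR the lists of chromatin factors, partners and neighbours had 0 genes each.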

How the data were processed

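The deposited file of whole-number counts per gene symbol was used as the authors made it. The submitters' processing notes name GRCm38, the aligner STAR 2.6.1d, the counter featureCounts and the test package edgeR 3.11. How strand and shared exons were handled is not given in the sources used here. The authors' deposited comparison gives log2 fold changes, a p-value per gene and a smoothed abundance score, and only its log2 values and p-values were read.

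Counts were filtered with filterByExpr (minimum count 10, minimum total 15), normalised by TMM and tested with edgeR 4.0.16 in R 4.3.3 (quasi-likelihood, 2-sided, no covariate) over 15859 genes, with Benjamini-Hochberg adjustment and a threshold of 0.05. Fold changes are Cre over WT. SE is the log2 fold change divided by the root of the F statistic. Single genes were also tested by an exact permutation test of the group labels (2-sided, smallest possible p 0.0286). Lengths come from GENCODE M21. Alternatives used DESeq2 1.42.0, limma 3.58.1 (voom), other scalings and filters, a replicate block and each library left out. The scripts were tested on simulated data.

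Named members are the C-type genes, the up to 4 smallest p, the up to 3 highest and the lowest level in each subtype, and those whose groups do not overlap. Pcdha1, Pcdha2, Pcdhb6, Pcdhga10, Ctcf and Trim28 fall outside that rule. The members and gene lists were chosen with earlier results of these data known. All 28 pairs of libraries differed by more than sampling noise (chi-square per gene 3.38 to 10).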

Additional observations from a re-analysis of the deposited data

Results flagged for a closer look

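In groups of 4 libraries, a library was singled out where its distance to the nearest other library exceeded Dixon's 95% critical value as a share of the group's whole range. Chance alone does this in about 1 of 20 groups, and 3 of the 80 groups examined had such a library. Pcdhb22 was at 14.6 CPM in Cre replicate 1, where the other Cre libraries had 15.7 to 15.9 CPM. Pcdhgc3 was at 105 CPM in Cre replicate 1, and between 94.6 and 96 CPM in the remaining Cre libraries. The summed level of the gamma A genes was 154 CPM in Cre replicate 3, against 162 to 163 CPM in the others. Cre replicate 1 is also the library with the highest microglia, astrocyte and oligodendrocyte marker sums, and the part of this in its Pcdhb22 and Pcdhgc3 levels was not tested.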

How the results depend on the processing

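None of the tested clustered protocadherins passed the threshold under any of the 16 alternatives, and the lowest adjusted p of a named member was 0.891. The count over all genes was 4 to 7. Between 5 and 10 members had an unadjusted p under 0.05, against 2.51% to 4.89% of all genes in the same fits, with 10 (3.37% of all genes) when Cre replicate 1 was left out. The log2 difference of the alpha sum ran from -0.15 to -0.07. Of 31 named members, 23 kept their direction under every alternative run. The other 8 had small fold changes that turned when a library was left out: Pcdha12 (-0.23 to 0.02), Pcdha8 (-0.15 to 0.31), Pcdhb20 (-0.03 to 0.03), Pcdhga11 (-0.03 to 0.1), Pcdhga3 (-0.13 to 0.08), Pcdhgb6 (-0.01 to 0.14), Pcdhgb7 (-0.14 to 0) and Pcdhgb8 (-0.12 to 0.13). With WT replicate 1 and Cre replicate 1 both left out, an alternative chosen after seeing the data, Pcdhb20 was at 0, and Pcdhga11, Pcdhgb6 and Pcdhgb8 were each at -0.07. Without the filter on low counts the value of Pcdhgb8 was 0 with the opposite sign. Per unshared kb the C-type ratios moved to 8.33 (Pcdhac2), 7.56 (Pcdhgc3) and 5.82 (Pcdhgc5), through the shorter lengths. The cause of the other changes was not tested.

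The deviations of libraries of the same replicate number had correlations of 0.2, -0.11, 0.02 and 0.02. For replicate 1 the value of 0.2 was above those with other replicate numbers (-0.18 to 0.04). For the remaining replicates the value of the same number was not the highest. The numbers as a set therefore show no pairing, and whether the libraries of replicate 1 are paired was not tested. With the replicate block 0 members and 6 genes in all passed the threshold. In that fit 7 members had an unadjusted p under 0.05 by edgeR, against 3.74% of all genes, and Pcdhgb8 was at 0 with the opposite sign. Depth limits the genes of few counts: a member such as Pcdha8 could differ by its whole interval of -0.74 to 0.95 without a call.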
